A study of Mus musculus with 6 samples.

Results

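The Hox genes of the mouse sciatic nerve are described here cell class by cell class in newborn mice (P1, postnatal day 1) and young adults (P60). Members were taken by symbol alone, as every gene named Hox followed by a cluster letter a, b, c or d and a number. No measured value entered the rule, although it was chosen with earlier results of these data known. The rule found 39 of the 41605 genes in the count tables, of which 11 lie in the HoxA cluster, 10 in HoxB, 9 in HoxC and 9 in HoxD. The study profiled single cells of the sciatic nerve on the 10x Genomics Chromium platform with 3' version 2 chemistry, in 3 libraries per age. Each droplet barcode stands for a cell, and each captured RNA molecule is counted by a unique molecular identifier (UMI). Levels are given in CPM, the UMIs of a gene in all cells of a class scaled to a common total per library, so that the library and not the cell is the replicate. All groups came from C57bl/6J mice carrying ReYFP Tg/+ and βAct-DsRed Tg/+ and heterozygous for a Cre transgene, in which a Cre driver of the Schwann cell lineage switches on eYFP and DsRed is driven in all cells by the β-actin promoter. Animals of both sexes were pooled in equal parts and were not perfused. DsRed-positive cells were sorted at both ages, and at P1 part of the cells positive for both DsRed and eYFP were discarded in the sort.

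Hox genes encode homeodomain transcription factors. They sit side by side in the HoxA, HoxB, HoxC and HoxD clusters, and genes at the same place in different clusters form a paralogue group with related sequences. Genes of low group number are used towards the head and genes of high number towards the tail and along the limbs, an order that follows their order along the chromosome. Cells keep part of this code after development, and fibroblasts of different body sites are known to differ in it. Hox proteins bind DNA together with Pbx and Meis proteins, while Polycomb proteins keep silent Hox genes off and Trithorax proteins keep active ones on. The sciatic nerve runs along the hindlimb. Its Schwann cells come from the neural crest, its endothelial cells from mesoderm, and most of its immune cells from blood-forming tissue.

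In the GENCODE M21 annotation of GRCm38 the HoxA members spanned chr6:52155590-52260880 on the minus strand, and the others lay on the plus strand. HoxB members spanned chr11:96194316-96368256, HoxC members chr15:102921103-103036852 and HoxD members chr2:74668310-74765142. All 39 were found there by gene identifier under the same symbol. Of these, 9 members shared exon sequence with another gene on the same strand, among them Hoxc5 with Hoxc10 and Hoxd3 with Hoxd4, and 10 overlapped an exon on the other strand, such as Hoxa11 with Hoxa11os and Hoxb3 with Hoxb3os. Neither the strand setting of the counting nor its treatment of reads that match several genes is given in the sources used here. Reads of these members may thus be shared with their neighbours or left uncounted. Their values are therefore uncertain, whereas 23 members had neither kind of overlap.

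Promoter sequence was at hand for 22 members (24 windows of 250 bases before a start site; RefSeq, GRCm38.p6). Of these, 3 windows that overlap no exon are shown, for members of the clusters that marked a class below: Hoxa10 for fibroblasts and mural cells, Hoxb8 and Hoxd8 for endothelial cells. Each is written 5′ to 3′ on the gene's strand with every CG dinucleotide in capitals. The Hoxa10 window is chr6:52234940-52235189 on the minus strand, upstream of the nearer of its starts. The Hoxb8 window is chr11:96281655-96281904 on the plus strand, and the Hoxd8 window is chr2:74704365-74704614 on the plus strand.
Hoxa10: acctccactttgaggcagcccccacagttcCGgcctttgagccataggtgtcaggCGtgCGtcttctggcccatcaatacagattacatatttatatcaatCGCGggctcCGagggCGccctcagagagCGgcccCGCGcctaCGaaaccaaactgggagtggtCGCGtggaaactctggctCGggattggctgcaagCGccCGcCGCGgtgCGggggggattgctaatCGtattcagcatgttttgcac
Hoxb8: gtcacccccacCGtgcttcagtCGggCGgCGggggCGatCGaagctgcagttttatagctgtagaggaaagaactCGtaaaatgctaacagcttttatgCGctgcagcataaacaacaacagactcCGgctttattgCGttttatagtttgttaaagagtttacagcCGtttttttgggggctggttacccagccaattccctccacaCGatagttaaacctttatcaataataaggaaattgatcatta
Hoxd8: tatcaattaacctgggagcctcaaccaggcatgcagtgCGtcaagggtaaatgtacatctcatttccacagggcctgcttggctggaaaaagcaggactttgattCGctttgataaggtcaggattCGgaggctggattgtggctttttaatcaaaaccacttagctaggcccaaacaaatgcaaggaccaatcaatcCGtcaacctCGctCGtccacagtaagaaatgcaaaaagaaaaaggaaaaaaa
The Hoxa10 window held 20 CG dinucleotides, the Hoxb8 window 12 and the Hoxd8 window 6. The median was 12.5 in the 24 Hox windows and 6 in all 32851 promoter windows of the same table, so the member windows were on the whole richer in CG. The letters TGATNNAT, the composite motif of a Pbx and a Hox protein side by side, were searched on both strands and stood in 4 Hox windows (Hoxa2, Hoxb1, Hoxb8 and Hoxd11). They stood in 7.68% of all windows. The letters TAATTA, a core that many homeodomains bind, stood in 2 Hox windows, both of Hoxd11, and in 4.84% of all windows. These are matches of letters and not binding sites.

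The libraries held between 20203440 and 30334608 UMIs, of which 7071 to 12622 per library fell on Hox members. P60 replicate 3 was the shallowest, with a median of 3627 UMIs per cell, had 16.2% of its cells above 10% mitochondrial counts against 2.97% to 13.6% in the others, and stood apart from the other P60 libraries. Its fibroblast sums correlated across genes at 0.975 and 0.977 with those of P60 replicates 1 and 2, which correlated at 0.995 with each other. Results that change without it are given with both values. Classes were named from markers after clustering without the Hox genes, and held 3553 Schwann cells, 5105 fibroblasts, 726 endothelial, 598 mural (pericyte and smooth muscle) and 1049 immune cells at P1, and 420, 7844, 1813, 869 and 1387 at P60. The P60 Schwann class carried 238 Hox UMIs in all, so 3 UMIs of a gene there amount to 2.42 CPM and low levels were not measurable. Pairs of libraries shared 13 to 32 cell barcodes, and no library was a copy of another. Nothing in the sources says whether suspensions of an age came from separate litters, so p-values measure the spread between these suspensions.

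The classes differed in which Hox clusters supplied their Hox RNA. Fibroblasts and mural cells drew on HoxA and HoxC, endothelial cells on Hoxa7, HoxB and HoxD with little HoxC, and P1 Schwann cells on HoxB and HoxC, while immune cells held little Hox RNA. At P1 the 39 members summed to 528, 528 and 519 CPM in the endothelial sums of replicates 1 to 3. The mural sums were 438, 465 and 461, the fibroblast sums 293, 309 and 295, the Schwann sums 189, 177 and 177 and the immune sums 23.9, 19.99 and 33.6. Every endothelial library lay above every mural one, and so on down that order with no overlap. At P60 the endothelial sums were 728, 716 and 719.7, the mural sums 467, 525 and 409.9, the fibroblast sums 452, 460.3 and 446, the Schwann sums 172, 227 and 175 and the immune sums 58.7, 51.3 and 48.1. Mural cells and fibroblasts overlapped at P60, and the other neighbours in the order did not.

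**Figure D1:**
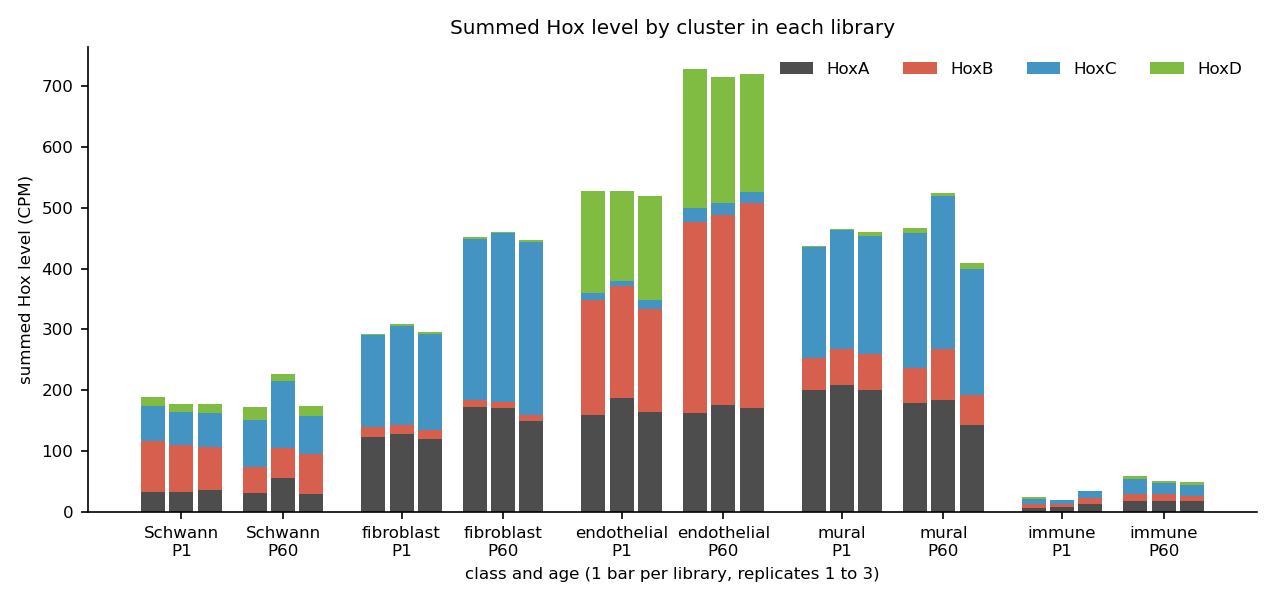
Summed level of the 39 Hox members in CPM (vertical axis, from 0) for each library and class at P1 and P60, with each bar divided by cluster. Endothelial bars are the highest at both ages and carry HoxB and HoxD, fibroblast and mural bars carry mainly HoxA and HoxC, and immune bars stay at or below 58.7 CPM.

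The clusters took unequal parts of these sums. In fibroblasts HoxC made up a mean of 52.6% of the Hox UMIs at P1 and 60.8% at P60, and HoxA 41.2% at P1, while HoxB held 5.35% and HoxD 0.87% at P1. In endothelial cells at P1 the shares were 34.4% for HoxB, 32.4% for HoxA, 31.0% for HoxD and 2.16% for HoxC, and HoxB reached 44.5% at P60. In mural cells HoxA held 44.6% and HoxC 41.9% at P1, and HoxC 48.7% at P60. In Schwann cells HoxB led at P1 with 42.5%, ahead of HoxC with 30.6%, and HoxC led at P60 with 43.2%. In the P60 Schwann cells with fewer than 10 UMIs of the fibroblast gene Dcn, however, HoxB held 37.04% to 47.4% and HoxC 21.1% to 34.7% over the libraries, with HoxB ahead in each. The posterior groups 9 to 13 supplied 62.8% to 65.3% of the Hox UMIs of fibroblasts at P1 and 58.8% to 60.4% of those of mural cells, against 33.8% to 36.1% in Schwann cells and 29.2% to 31.7% in endothelial cells. In mural cells this part was 44.5% to 46.4% at P60, below each P1 library.

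**Figure D2:**
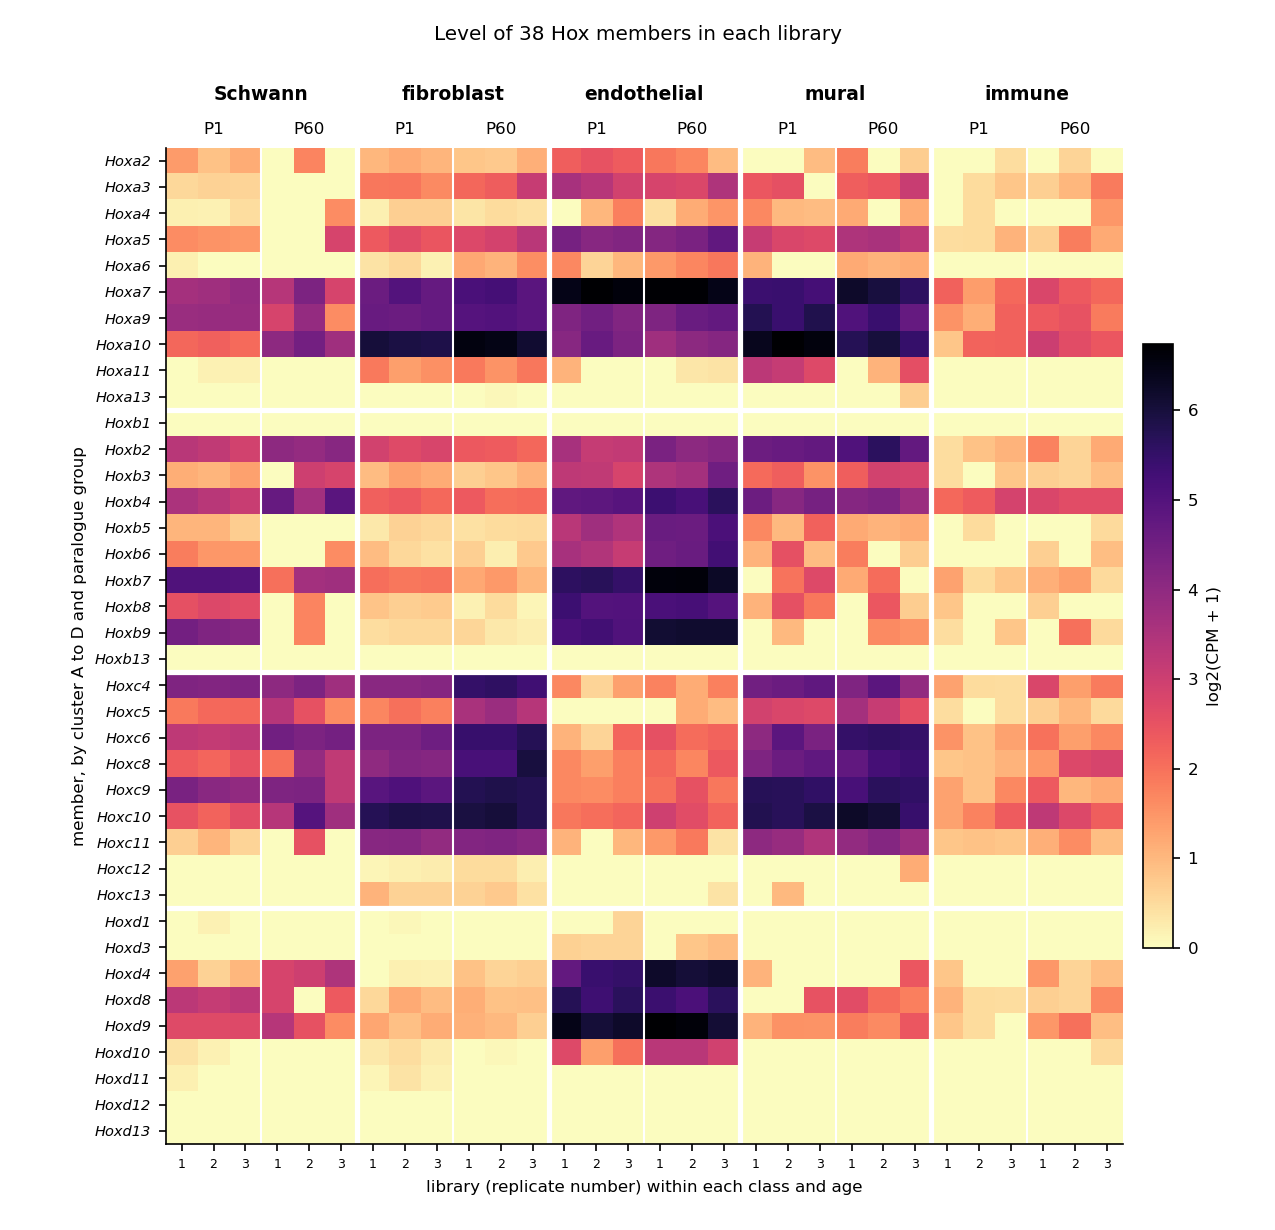
Level of 38 of the 39 members (rows, by cluster and group) in each of the 30 combinations of library and class (columns), as log2(CPM + 1). HoxC rows are filled in fibroblasts and mural cells and nearly empty in endothelial cells, HoxB and HoxD rows are filled in endothelial cells, and the immune columns are pale throughout.

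As a class, fibroblasts raised most of their HoxC genes and part of HoxA between P1 and P60, while the HoxB genes that moved fell. The mix of nerve layers in the class differed between the ages, as given below. Of 22 members tested, 10 were higher and 2 lower at P60 (edgeR's quasi-likelihood test with Benjamini-Hochberg (BH) adjustment over all genes tested, threshold 0.05), a share to be read against 59.7% of all genes tested in fibroblasts (31% higher and 28.7% lower). By cluster, 5 of 9 HoxA and 5 of 7 HoxC members tested were higher, and 2 of 4 HoxB members were lower. The median log2 change over the tested members was 0.28, against 0.04 over all genes tested.

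Within HoxC, Hoxc4 stood at 16.1, 16.02 and 16.8 CPM at P1 and 44.5, 46.6 and 38.7 at P60, a log2 change of 1.42 ± 0.12 (SE; edgeR quasi-likelihood, BH-adjusted p = 7.9e-06). Hoxc5, its neighbour, was at 2.24, 3.01 and 2.46 and 10.8, 12.96 and 9.28, with 2.11 ± 0.20 (SE; edgeR quasi-likelihood, BH-adjusted p = 1.7e-05). Both belong to the groups used in the neck and upper trunk, and each P60 library lay above each P1 library. Hoxc6, a gene of the upper limb level, was at 18.97, 18.7 and 22.5 and 42.4, 42.4 and 52.2, with 1.19 ± 0.12 (SE; edgeR quasi-likelihood, BH-adjusted p = 3.1e-05). Hoxc8, which helps to set motor neuron identity in the lower neck, was at 15.03, 17.9 and 16.9 and 35.2, 35.1 and 61.95, with 1.40 ± 0.21 (SE; edgeR quasi-likelihood, BH-adjusted p = 0.00034). The ages did not overlap for either gene, but P60 replicate 3 was far above the other P60 libraries for Hoxc8. Hoxc9 also rose, whereas the more posterior Hoxc10 and Hoxc11 did not pass the test. Hoxc10, used in the hindlimb, stood at 51.7, 57.4 and 55.98 at P1 and 60.7, 64.5 and 52.8 at P60.

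The highest HoxA member was Hoxa10, which acts in the uterus and hindlimb, at 63.99, 59.7 and 57.6 CPM at P1 and 92.1, 86.9 and 68.96 at P60. Its log2 change was 0.46 ± 0.13 (SE; edgeR quasi-likelihood, BH-adjusted p = 0.015). The ages did not overlap, but the call was lost without P1 replicate 2, without P1 replicate 3 and without P60 replicate 1. Hoxa6 was low at both ages, at 0.308, 0.451 and 0.133 and 1.35, 1.08 and 2.03, from 12 UMIs at P1, and had the largest log2 change among the members called, 2.29 ± 0.44 (SE; edgeR quasi-likelihood, BH-adjusted p = 0.0017). Hoxa3, which the pharyngeal organs need, and Hoxa5 and Hoxa9 rose as well. Hoxa7 did not pass the test. Of the HoxB genes, Hoxb7 fell from 3.08, 2.78 and 2.92 to 1.35, 1.71 and 1.01, with -1.07 ± 0.24 (SE; edgeR quasi-likelihood, BH-adjusted p = 0.0043), and Hoxb2, a hindbrain gene, fell as well. Each P60 library lay below each P1 library for both. In fibroblasts the median endothelial marker stood at 0.81% of its endothelial level at P1 and 1.25% at P60, where the highest stood at 26.4%. For Schwann markers the medians were 1.70% and 0.51% of their Schwann level. The part of RNA carried from these classes in the low HoxB levels was not tested. Without P60 replicate 3 there were 14 calls of 23 members tested, and over all libraries left out in turn between 8 and 14. The fibroblasts of each age were clustered apart and mix the nerve's layers, described below, in different parts. At P1, 1331 of the 5105 were named endoneurial, 856 perineurial and 1351 epineurial, and the others took no layer name. At P60 the 7844 were 862, 2447 and 4535. The part of this mix in the changes between the ages was not tested.

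**Figure D3:**
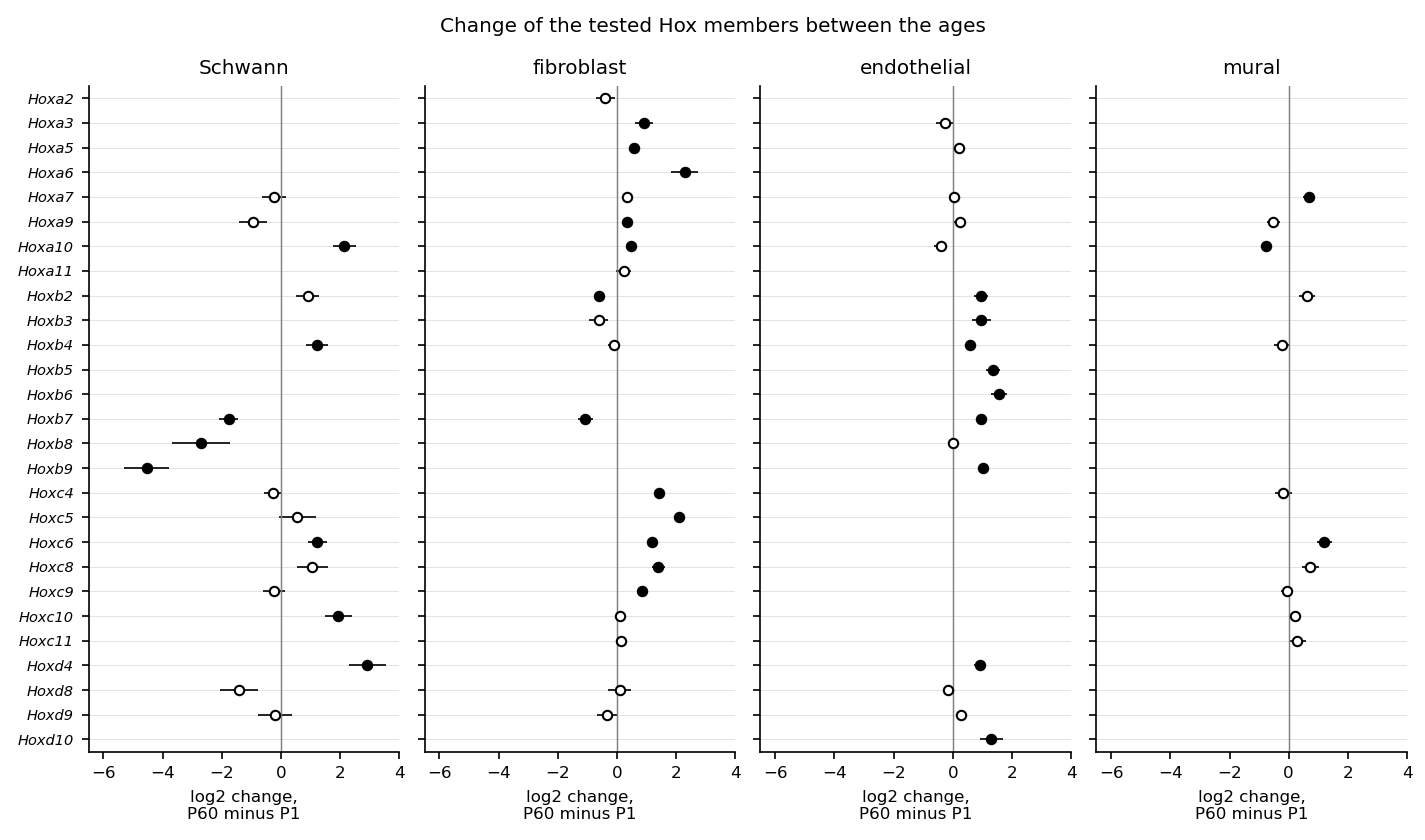
Log2 change of tested members between P60 and P1 (P60 minus P1; points, with bars of ± SE) in Schwann, fibroblast, endothelial and mural cells. Filled points passed an adjusted p of 0.05; HoxC points lie to the P60 side in fibroblasts, HoxB points in endothelial cells, and Hoxb9 is far to the P1 side in Schwann cells.

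At P60 the fibroblast class divides into endoneurial cells (862), perineurial cells (2447) and epineurial cells (4535), which line the inside of the fascicle, its sheath and the outer wrapping of the nerve. Compared with endoneurial cells, perineurial cells had 5 members higher and 3 lower of 17 tested, with 49.4% of all genes called in that contrast (27.1% higher and 22.3% lower). Epineurial cells had 5 higher and 2 lower of 17, with 37.9% of all genes called (20.7% higher and 17.2% lower).

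In perineurial cells 5 of 7 HoxC members tested were higher, and 3 of 7 HoxA members lower. Hoxc5 was at 8.69, 12.8 and 5.23 CPM in endoneurial and 19.1, 20.4 and 16.2 in perineurial cells, with a log2 difference of 1.03 ± 0.26 (SE; edgeR quasi-likelihood, BH-adjusted p = 0.0015). Hoxc6 was at 26.1, 35.2 and 34.5 and 55.1, 52.4 and 71.1, with 0.88 ± 0.14 (SE; edgeR quasi-likelihood, BH-adjusted p = 7.9e-06). No library overlapped for either gene. Hoxa5, a gene of the lung and upper trunk, was at 5.21, 8.54 and 18.8 in endoneurial and 3.56, 3.47 and 4.16 in perineurial cells, with -1.53 ± 0.35 (SE; edgeR quasi-likelihood, BH-adjusted p = 0.00054), a call lost without P60 replicate 3. Hoxa6 was at 3.48, 3.203 and 3.14 and 1.26, 0.7998 and 1.53, with -1.49 ± 0.62 (SE; edgeR quasi-likelihood, BH-adjusted p = 0.046), a call lost without any 1 of the libraries. Hoxa11, which shapes the middle segment of the limb, had 2 UMIs in perineurial and 4 in endoneurial cells, at a ratio of 0.0903 (95% exact counting interval 0.00817 to 0.6303) (edgeR quasi-likelihood, BH-adjusted p = 0.033). This call was lost without P60 replicate 2 and without P60 replicate 3.

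Epineurial cells were the site of the highest Hoxa10. It stood at 122, 126 and 91.6 CPM there, 54.7, 45.9 and 49.2 in endoneurial and 45.2, 44.9 and 41.8 in perineurial cells, with a log2 difference of epineurial from endoneurial cells of 1.22 ± 0.12 (SE; edgeR quasi-likelihood, BH-adjusted p = 5.2e-10). Hoxc11, a posterior gene of the hindlimb, was at 10.4, 9.61 and 7.32 in endoneurial and 17.8, 18.2 and 16.3 in epineurial cells, with 0.97 ± 0.25 (SE; edgeR quasi-likelihood, BH-adjusted p = 0.0021), and was higher in perineurial cells as well, with 0.98 ± 0.25 (SE; edgeR quasi-likelihood, BH-adjusted p = 0.0016). Hoxa7, in contrast, was lower in epineurial cells, at 25.5, 25.8 and 20.2 against 40.8, 44.8 and 36.6 in endoneurial cells, with -0.72 ± 0.15 (SE; edgeR quasi-likelihood, BH-adjusted p = 0.00018). In these contrasts the libraries of the layers did not overlap. Hoxa11 rested on 4 UMIs in endoneurial cells, at 0, 1.07 and 3.14 CPM, and was at 4.39, 3.53 and 4.59 in epineurial cells, with 1.71 ± 0.66 (SE; edgeR quasi-likelihood, BH-adjusted p = 0.042). This call was lost without P60 replicate 1 and without P60 replicate 2. At P1, where no test of the layers was run, Hoxa10 stood at 112, 102 and 102 CPM in epineurial, 40.8, 41.04 and 39.2 in perineurial and 34.2, 29.3 and 31.7 in endoneurial cells, again highest in epineurial cells. Without P60 replicate 1 there were 3 epineurial calls.

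**Figure D4:**
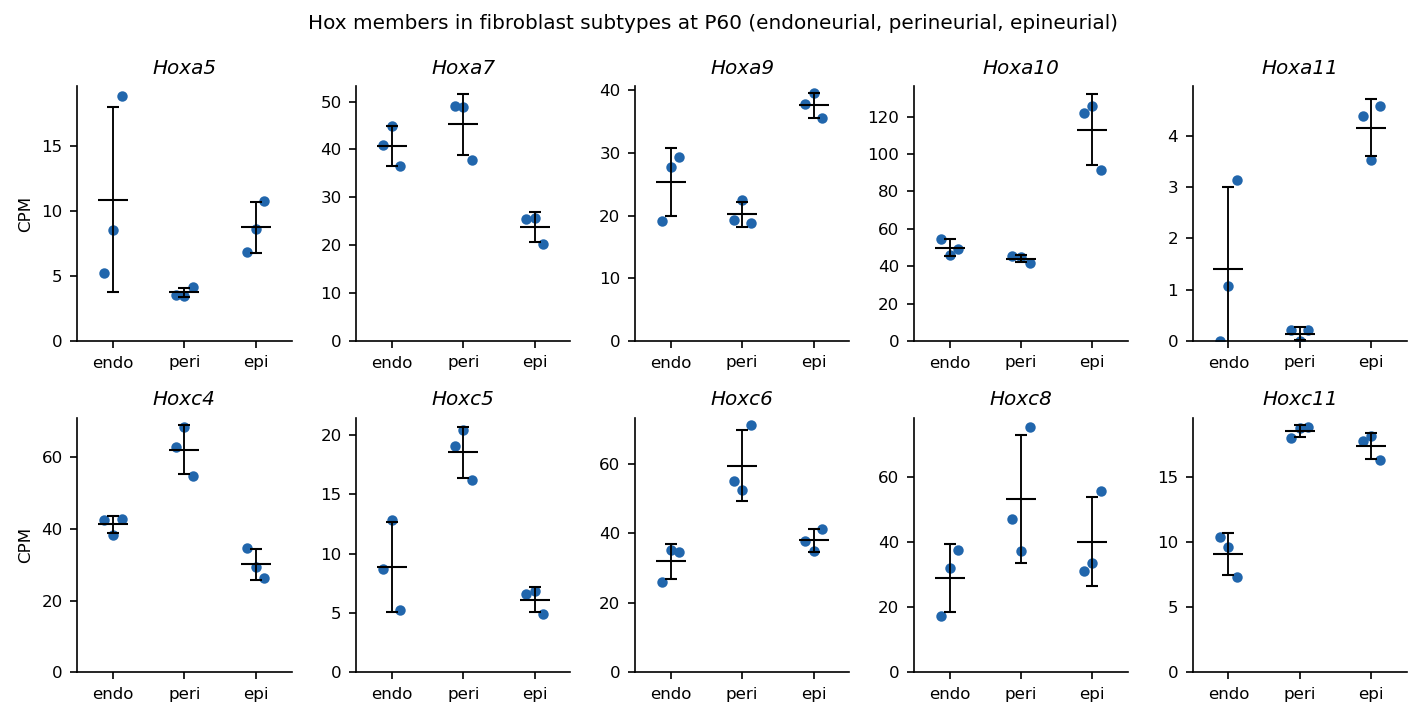
Level in CPM (vertical axes, one panel per gene) of 10 members in endoneurial, perineurial and epineurial cells at P60, with a point per library and bars of mean ± SD of 3 libraries. Hoxa10 is highest in epineurial cells, and Hoxc4, Hoxc5, Hoxc6 and Hoxc8 are highest in perineurial cells.

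Mural cells, the contractile and pericyte cells of the vessel wall, held the fibroblast set of HoxA and HoxC together with anterior HoxB genes. Compared with fibroblasts at P1, 12 of 25 members tested were higher and 0 lower, against 44.9% of all genes called (20.5% higher and 24.4% lower). Without P1 replicate 3 there were 7 calls at P1. At P60, 7 of 24 were higher and 2 lower, against 45.5% (22% higher and 23.6% lower). Hoxa10 stood at 81.2, 106 and 93.8 CPM at P1 and 51.7, 62.5 and 42.9 at P60. Hoxc10 stood at 54.2, 50.4 and 59.8 and 73.7, 66.8 and 42.3. Hoxa9, a gene of posterior identity and of blood cell growth, stood at 53.1, 41.7 and 55.2 and 32.3, 42.03 and 24.9. These were the most abundant members at P1. At P60 Hoxa9, at a mean of 33.1, lay below several others, among them Hoxa7, at 60.6, and Hoxc6, at 44.8. Hoxa10 was lower in each P60 library than in each P1 library.

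Of 8 HoxB members tested, 5 were higher in mural cells than in fibroblasts at P1 and 4 at P60. The others higher at P60 were Hoxa7, Hoxd8 and Hoxd9, and Hoxa10 and Hoxc4 were lower. The call of Hoxd8 was lost without P60 replicate 1 or P60 replicate 2 and that of Hoxd9 without P60 replicate 3. Hoxb2 was at 22.7, 24.2 and 25.8 CPM in mural cells and 6.48, 5.42 and 6.04 in fibroblasts at P1, with a log2 difference of 1.91 ± 0.21 (SE; edgeR quasi-likelihood, BH-adjusted p = 8.3e-09). At P60 it was at 32.3, 48.5 and 25.5 and 4.25, 3.997 and 3.46, with 3.14 ± 0.22 (SE; edgeR quasi-likelihood, BH-adjusted p = 4.3e-11). Each mural library lay above each fibroblast library at both ages. Hoxb4, known for blood stem cell growth, was at 22.7, 16.5 and 20.2 at P1 and 16.8, 18.3 and 13.1 at P60, with differences of 2.29 ± 0.26 (SE; edgeR quasi-likelihood, BH-adjusted p = 1.7e-08) and 2.12 ± 0.27 (SE; edgeR quasi-likelihood, BH-adjusted p = 6.7e-07). Hoxb3 was higher at P60, at 3.88, 6.47 and 6.22 against 0.607, 0.742 and 1.097 in fibroblasts, with 2.68 ± 0.45 (SE; edgeR quasi-likelihood, BH-adjusted p = 3.5e-05). Hoxb5 and Hoxb8 were higher at P1 from 7 and 9 UMIs, with 2.30 ± 0.77 (SE; edgeR quasi-likelihood, BH-adjusted p = 0.016) and 1.98 ± 0.64 (SE; edgeR quasi-likelihood, BH-adjusted p = 0.013). Both calls were lost without P1 replicate 3, that of Hoxb5 also without P1 replicate 1 and that of Hoxb8 also without P1 replicate 2. Hoxb8 at P60 rested on 5 UMIs and its call was lost without P60 replicate 2.

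Between the ages 3 of 11 members tested changed in mural cells, 2 higher and 1 lower, against 33% of all genes tested (17.8% higher and 15.2% lower). Hoxc6 went from 15.2, 28.1 and 19.3 to 43.99, 46.3 and 44.2, with 1.20 ± 0.26 (SE; edgeR quasi-likelihood, BH-adjusted p = 0.0045). Hoxa10 fell, with -0.75 ± 0.19 (SE; edgeR quasi-likelihood, BH-adjusted p = 0.01), and the call was lost without P1 replicate 2. Hoxa7 went from 41.2, 41.7 and 36.8 to 72.4, 61.4 and 47.9, with 0.68 ± 0.20 (SE; edgeR quasi-likelihood, BH-adjusted p = 0.022). Ages did not overlap for any of the 3. The class joins pericytes and smooth muscle cells, and the part of their mix in these changes was not tested. The call of Hoxa7 was lost in 5 of the 6 fits that leave out a library and with DESeq2. The number of calls lay between 1 (without P1 replicate 2) and 4 over those fits.

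Endothelial cells, which line the vessels, stood out by HoxB and HoxD and by the near absence of HoxC. At P1, 15 of 25 members tested were higher than in fibroblasts and 10 lower, against 66.5% of all genes called (33.3% higher and 33.2% lower), and at P60, 15 of 24 were higher and 9 lower, against 62.6% (31.7% higher and 31% lower). All 8 HoxB members tested were higher and all 7 HoxC members lower at both ages. All HoxD members tested were higher, 3 at P1 and 4 at P60. The highest member by mean level at P1 was Hoxa7, at 85.7, 106 and 95.5 CPM at P1 and 103, 104 and 86.1 at P60, against 23.3, 31.1 and 24.8 in P1 fibroblasts.

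Among the HoxD genes, Hoxd9 was at 85.7, 65.3 and 73.3 in endothelial cells and 1.39, 0.828 and 1.26 in fibroblasts at P1, with 5.92 ± 0.15 (SE; edgeR quasi-likelihood, BH-adjusted p = 4e-23). Hoxd9 shares its group with Hoxa9 and Hoxb9 and acts in the limb and lumbar region. Hoxd4, an anterior gene of the neck, was at 25.4, 41.6 and 44.5 against 4 UMIs in P1 fibroblasts, at a ratio of 387 (95% exact counting interval 149 to 1434) (edgeR quasi-likelihood, BH-adjusted p = 5.8e-18). At P60 it was at 72.9, 65.7 and 70.6 against 0.8099, 0.514 and 0.591, with 6.64 ± 0.21 (SE; edgeR quasi-likelihood, BH-adjusted p = 1.2e-17). Every endothelial library lay far above every fibroblast library for both genes. Hoxd10, a gene of the hindlimb, rested on 1 UMI in P60 fibroblasts and 84 in P60 endothelial cells, a ratio of 362 (95% exact counting interval 63.2 to 14457) (edgeR quasi-likelihood, BH-adjusted p = 1e-09). Hoxd8 stood at 51.9, 39.6 and 49.5 at P1 and 41.05, 33.7 and 49.4 at P60.

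Among the HoxB genes, Hoxb9 was at 34.3, 38.03 and 31.8 in endothelial cells and 0.385, 0.451 and 0.465 in fibroblasts at P1, with 6.18 ± 0.23 (SE; edgeR quasi-likelihood, BH-adjusted p = 2.7e-19), and at P60 at 67.7, 70.4 and 69.7 and 0.472, 0.228 and 0.169, with 7.69 ± 0.25 (SE; edgeR quasi-likelihood, BH-adjusted p = 2.3e-17). Hoxb8 was at 34.5, 35.7 and 30.3 and 0.135, 0.3997 and 0.0844 at P60, with 7.01 ± 0.30 (SE; edgeR quasi-likelihood, BH-adjusted p = 3.2e-15). The groups lay far apart for both genes. From HoxC, Hoxc5 had no UMI among 5734564 in the P1 endothelial class, at least 4.903-fold lower than in fibroblasts, counting 3 UMIs over the 3 libraries as the limit of a count of 0. Hoxc10, one of the leading genes of fibroblasts, was at 2.76, 3.08 and 3.54 in P1 endothelial cells. The fibroblast markers stood at 1.87% to 8.29% of their fibroblast level in these cells at P1 and at 4.64% to 9.55% at P60, and at P60 Hoxc10 was at 8.604%; the part of carried fibroblast RNA in the remaining HoxC was not tested.

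Between the ages endothelial cells, taken as a class, raised HoxB. The study separated endothelial clusters by markers at P60 but found a single cluster at P1. The part of such a mix in the changes was not tested. Of 17 members tested 9 were higher and 0 lower at P60, against 40% of all genes tested (21.1% higher and 18.9% lower). They were 7 of the 8 HoxB and 2 of the 4 HoxD members tested, and 0 of 5 HoxA members. The median log2 change was 0.58 over the members and 0.02 over all genes. Hoxb6 went from 11.1, 9.76 and 7.58 CPM to 21.9, 23.8 and 38.2, with 1.58 ± 0.27 (SE; edgeR quasi-likelihood, BH-adjusted p = 0.00066). Hoxb5, which marks early endothelial precursors, went from 8.84, 12.3 and 10.1 to 23.6, 23.04 and 33.95, with 1.37 ± 0.23 (SE; edgeR quasi-likelihood, BH-adjusted p = 0.00063). Hoxb9 had a log2 change of 1.01 ± 0.14 (SE; edgeR quasi-likelihood, BH-adjusted p = 0.00011) and Hoxb2 of 0.96 ± 0.23 (SE; edgeR quasi-likelihood, BH-adjusted p = 0.0059). For all of these every P60 library lay above every P1 library. Hoxb7 rose as well and stood at 96.8, 97.4 and 76.1 at P60, beside Hoxd9 at 106, 98.4 and 66.1. Hoxb8 was the member of HoxB that did not pass the test.

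Other calls were less firm. Hoxb3 was at 8.29, 8.22 and 6.06 at P1 and 10.3, 11.6 and 21.8 at P60, highest in P60 replicate 3, with 0.97 ± 0.33 (SE; edgeR quasi-likelihood, BH-adjusted p = 0.036). Its call was lost without each P1 library, without P60 replicate 3 and with DESeq2. Hoxd10, at 5.53, 1.54 and 3.03 and 8.89, 8.92 and 6.67, had 1.30 ± 0.39 (SE; edgeR quasi-likelihood, BH-adjusted p = 0.019) and lost its call without P1 replicate 2, P1 replicate 3 or P60 replicate 2. Ages did not overlap for either.

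Schwann cells, the glia that ensheathe axons, held HoxB and HoxC genes. At P1 they held little of groups 10 and 11 of HoxA and HoxC, whereas Hoxa9 and Hoxc9 stood at 55.4% and 55.6% of their fibroblast level. At P1, 8 of 25 members tested were higher than in fibroblasts and 11 lower, against 73.6% of all genes called (34% higher and 39.6% lower). By cluster, 5 of 8 HoxB and 3 of 3 HoxD members were higher, and 6 of 7 HoxA and 5 of 7 HoxC members lower. Hoxb7 was the highest member at P1, at 32.001, 32.3 and 30.8 CPM, followed by Hoxb9 at 21.2, 18.2 and 17.2 and Hoxc4 at 18.1, 17.3 and 18.6. Hoxb7 lay above the other members in every library, while Hoxb9 and Hoxc4 changed places between libraries.

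Against fibroblasts, Hoxb9, which shapes the rib cage, had a log2 difference of 5.25 ± 0.20 (SE; edgeR quasi-likelihood, BH-adjusted p = 2.7e-19). Hoxa10 was at 3.44, 3.75 and 3.29 CPM in Schwann cells, with -4.21 ± 0.12 (SE; edgeR quasi-likelihood, BH-adjusted p = 3.6e-22). Hoxc11 was at 0.598, 1.07 and 0.507, with -4.51 ± 0.21 (SE; edgeR quasi-likelihood, BH-adjusted p = 1.7e-17). No library of the classes overlapped for these genes. Hoxa11 rested on 2 UMIs in Schwann cells, at a ratio of 0.0436 (95% exact counting interval 0.005197 to 0.162) (edgeR quasi-likelihood, BH-adjusted p = 5.9e-07). The 6 fibroblast markers stood at 3.55% to 29.8% of their fibroblast level in P1 Schwann cells and at 18.8% to 52.6% in P60 Schwann cells.

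At P60, 6 of 24 members were higher in Schwann cells than in fibroblasts and 10 lower, against 34.8% of all genes called (15.2% higher and 19.7% lower). The highest members were Hoxb4 at 24.5, 11.7 and 28.8 CPM, Hoxc6 at 21.5, 18.7 and 20.6 and Hoxc10 at 9.203, 30.4 and 12.3, which overlapped with each other. In the P60 Schwann cells with fewer than 10 Dcn UMIs the order differed. Pooled levels there were 25.7 CPM for Hoxb4, 15.4 for Hoxb2, 13.3 for Hoxc6 and 4.11 for Hoxc10. Hoxd4 was at 6.14, 7.01 and 10.3 against 0.8099, 0.514 and 0.591 in fibroblasts, with 3.42 ± 0.72 (SE; edgeR quasi-likelihood, BH-adjusted p = 0.00061), and Hoxb7 at 3.07, 11.7 and 12.3 against 1.35, 1.71 and 1.01, with 2.63 ± 0.56 (SE; edgeR quasi-likelihood, BH-adjusted p = 0.00073). Each Schwann library lay above each fibroblast library for both. Hoxa3 had no UMI in P60 Schwann cells and was at least 1.96-fold lower, a call lost without P60 replicate 3. Hoxc11 rested on 2 UMIs, at a ratio of 0.0929 (95% exact counting interval 0.0112 to 0.337) (edgeR quasi-likelihood, BH-adjusted p = 0.00021).

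Between the ages 8 of 17 members tested changed in Schwann cells, 5 higher and 3 lower, against 40.3% of all genes tested (21.4% higher and 18.8% lower). The study cautions that Schwann cells from heavily myelinated nerves were poorly extracted and may be sampled only in part. At P1 part of the eYFP-positive cells had been discarded in the sort. The part of such sampling in these changes was not tested. Those 3 that fell were all HoxB genes. Hoxb7 went from its P1 level above to 3.07, 11.7 and 12.3 CPM, with -1.76 ± 0.33 (SE; edgeR quasi-likelihood, BH-adjusted p = 0.00083). Hoxb9 fell from 414 UMIs to 1, a ratio of 0.0429 (95% exact counting interval 0.00108 to 0.2404) (edgeR quasi-likelihood, BH-adjusted p = 0.00038). Hoxb8, a gene of the lower trunk, fell from 115 UMIs to 1, a ratio of 0.154 (95% exact counting interval 0.00388 to 0.878) (edgeR quasi-likelihood, BH-adjusted p = 0.042). P60 libraries lay below P1 libraries for all 3, and the call of Hoxb8 was lost without P60 replicate 1, without P60 replicate 3 and with DESeq2.

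The 5 that rose were Hoxd4, Hoxa10, Hoxc10, Hoxc6 and Hoxb4, each from 10 to 27 UMIs at P60. Hoxd4 went from 1.495, 0.536 and 1.01 to 6.14, 7.01 and 10.3, with 2.92 ± 0.63 (SE; edgeR quasi-likelihood, BH-adjusted p = 0.0025). Hoxa10 went to 15.3, 21.03 and 12.3, with 2.15 ± 0.40 (SE; edgeR quasi-likelihood, BH-adjusted p = 0.00083), and Hoxc10 from 4.64, 3.62 and 5.07 to 9.203, 30.4 and 12.3, with 1.94 ± 0.46 (SE; edgeR quasi-likelihood, BH-adjusted p = 0.0043). Each P60 library lay above each P1 library. The call of Hoxc10 was lost without P60 replicate 2, and that of Hoxb4 without P60 replicate 1 or P60 replicate 3. Fibroblast markers stood higher in P60 than in P1 Schwann cells, as given above. In the P60 Schwann cells with fewer than 10 UMIs of the fibroblast gene Dcn, the pooled level of Hoxa10 was 4.11 CPM against 16.1 in all of them, and that of Hoxc10 4.11 against 17.7, while Hoxb4 stood at 25.7 against 21.8 and Hoxd4 at 9.24 against 8.06. When only cells under 10 Dcn UMIs were kept at both ages, 5 members were called, and Hoxc10, with a log2 change of 0.05, and Hoxc6, with 0.67, were among those lost. Without P60 replicate 3, 6 of 21 members were called.

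Immune cells held the least Hox RNA. At P1, 0 members were higher than in fibroblasts and 17 lower of 25 tested, against 72% of all genes called (35.9% higher and 36.1% lower), and at P60, 3 of 24 were higher and 13 lower, against 63.9% (32.7% higher and 31.2% lower). The highest members at P1 were Hoxb4 at 3.31, 3.999 and 6.29 CPM, Hoxa7 at 3.68, 1.599 and 3.33 and Hoxa10 at 0.736, 3.599 and 3.697. At P60 they were Hoxc10 at 8.297, 5.64 and 3.899, Hoxa10 at 7.11, 5.13 and 4.33 and Hoxb4 at 5.93, 5.13 and 5.199. Neither order held in every library. Fibroblast markers stood at 3.56% to 8.98% of their fibroblast level at P1 and 5.81% to 8.76% at P60. In P60 immune cells with fewer than 10 UMIs of Dcn, Hoxa10 was 1.47 CPM against 5.38 in all and Hoxc10 1.47 against 5.72, whereas Hoxb4 was 5.16 against 5.38.

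Hoxb4 was 1 of the 3 members higher in immune cells than in fibroblasts at P60, with 0.91 ± 0.30 (SE; edgeR quasi-likelihood, BH-adjusted p = 0.011). Hoxa11 had no UMI in immune cells at either age and was at least 5.495-fold lower at P1 and at least 4.75-fold lower at P60. Hoxb6 had none at P1 and was at least 1.47-fold lower, a call lost without each P1 library. Hoxc9, with -4.41 ± 0.27 (SE; edgeR quasi-likelihood, BH-adjusted p = 3e-12), and Hoxc6, with -4.06 ± 0.22 (SE; edgeR quasi-likelihood, BH-adjusted p = 2.3e-13), were far below fibroblasts in every P60 library. Between the ages, edgeR called 0 of 2 members tested, against 37.4% of all genes (20.3% higher and 17.1% lower), and 1 had an unadjusted p under 0.05.

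Whether a class changed with age differently from fibroblasts was tested by the interaction of class and age over 25 members. A member counts as higher where its signed log2 change lay above that of fibroblasts, and as lower where it lay below. Schwann cells had 5 members higher and 5 lower (26.7% of all genes called, 13.9% higher and 12.8% lower), endothelial cells 9 and 2 (30%, 16.5% higher and 13.5% lower), mural cells 1 and 6 (20.1%, 11% higher and 9.17% lower) and immune cells 2 and 0 (30%, 16.2% higher and 13.8% lower). In endothelial cells 8 of the 9 were HoxB genes. Hoxb7 fell in fibroblasts while it rose in endothelial cells, with a difference of the log2 changes of 2.08 ± 0.27 (SE; edgeR quasi-likelihood, BH-adjusted p = 1.9e-07). Its mean at P60 was 1.36 CPM in fibroblasts against 90.1 in endothelial cells, and the part of carried RNA in the fibroblast level was not tested. Hoxa10 fell in mural cells while it rose in the fibroblast class, with -1.17 ± 0.18 (SE; edgeR quasi-likelihood, BH-adjusted p = 8.9e-06). Cells named epineurial, where Hoxa10 was highest, were 1351 of 5105 fibroblasts at P1 and 4535 of 7844 at P60. The part of this mix in the fibroblast changes was not tested. Hoxc4 and Hoxc5 had smaller changes in mural cells than in fibroblasts, with -1.57 ± 0.27 (SE; edgeR quasi-likelihood, BH-adjusted p = 3.8e-05) and -1.61 ± 0.49 (SE; edgeR quasi-likelihood, BH-adjusted p = 0.018). Without P60 replicate 3 the counts were 3 for Schwann, 7 for endothelial, 6 for mural and 2 for immune cells. Schwann cells had 6 without P60 replicate 2, endothelial cells 6 without P1 replicate 1 or P1 replicate 2, and immune cells 1 without any P1 library or P60 replicate 2.

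Several members had few or no UMIs. Hoxb1, Hoxb13, Hoxd12 and Hoxd13 had no UMI in any of the 5 classes, which allows a level of up to 0.0679 CPM in P60 fibroblasts, the deepest class, and up to 2.42 CPM in P60 Schwann cells. Hoxa13, which forms the hand and foot, had 2 UMIs. Hoxd1 had 3 UMIs in all classes together. Hoxd3 had 3 and 6 in endothelial cells at P1 and P60, and Hoxd11 7 in P1 fibroblasts. Hoxd3 shares exon sequence with Hoxd4 on the same strand, and Hoxd11 with Gm28309, so these low counts are uncertain and do not show silence. Hoxc12 had 6 and 15 in fibroblasts, and Hoxc13, a gene of hair and nails, 29 and 24. Of the anterior HoxA genes, Hoxa2 and Hoxa4 were low as well. Hoxa2 was at 3.87, 4.62 and 4.04 CPM in endothelial cells at P1 and 2.74, 2.23 and 0.909 at P60, and Hoxa4 at 0, 1.03 and 2.53 and 0.342, 1.24 and 1.82. At 10 CPM or more stood 6 members in Schwann cells, 9 in fibroblasts, 12 in endothelial and 11 in mural cells at P1, with 8, 10, 15 and 11 at P60, and 0 in immune cells at both ages.

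Genes tied to the Hox system by function were followed as lists. Of 9 Hox cofactors of the TALE family (Pbx, Meis and Pknox genes), all 9 were tested in fibroblasts, with 2 higher and 5 lower at P60, against the 59.7% of all genes called there. Pbx3 was at 11.02, 10.2 and 11.95 CPM at P1 and 3.64, 3.83 and 5.57 at P60, with -1.36 ± 0.17 (SE; edgeR quasi-likelihood, BH-adjusted p = 0.00014). Each P60 library of Pbx3 lay below each P1 library. In endothelial cells 2 of 5 were higher and 1 lower, against 40% of all genes, and Meis2 went from 10.5, 6.17 and 8.59 to 66.02, 67.9 and 93.7, with 3.18 ± 0.22 (SE; edgeR quasi-likelihood, BH-adjusted p = 6.1e-07). At P1, Schwann cells had 0 of 8 tested higher than fibroblasts and 7 lower, against 73.6% of all genes, and Meis1 had a difference of -1.34 ± 0.15 (SE; edgeR quasi-likelihood, BH-adjusted p = 4.7e-09).

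Of 22 transcription factors of limb and axial position, 10 were tested between classes at P1. Schwann cells had 1 higher and 8 lower than fibroblasts (73.6% of all genes called), endothelial cells 2 and 8 (66.5%), mural cells 4 and 5 (44.9%) and immune cells 0 and 9 (72%). Pitx1, which sets hindlimb identity, was at 14.6, 15.1 and 15.5 CPM in fibroblasts at P1 and 7.29, 7.37 and 7.01 at P60, with -1.05 ± 0.12 (SE; edgeR quasi-likelihood, BH-adjusted p = 5.1e-05). At P60 it was higher in epineurial than in endoneurial cells, with 3.78 ± 0.71 (SE; edgeR quasi-likelihood, BH-adjusted p = 7.1e-05), and in perineurial cells, with 3.07 ± 0.81 (SE; edgeR quasi-likelihood, BH-adjusted p = 0.0022). Tbx2 was higher in mural cells, with a P1 difference from fibroblasts of 2.82 ± 0.15 (SE; edgeR quasi-likelihood, BH-adjusted p = 4.2e-15). Prrx1, a fibroblast gene, went from 6.73, 9.25 and 9.88 to 117, 119 and 57.5 in Schwann cells, where fibroblast markers stood higher at P60, as given above, and their part was not tested.

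Of 20 Polycomb and Trithorax genes, fibroblasts had 5 higher and 8 lower at P60 (59.7% of all genes called), endothelial cells 6 and 4 of 19 (40%), mural cells 5 and 3 of 17 (33%), Schwann cells 5 and 3 of 20 (40.3%) and immune cells 5 and 2 of 18 (37.4%). Ezh2, the Polycomb methyltransferase of dividing cells, fell in all 5 classes, in fibroblasts from 38.2, 38.6 and 39.4 to 5.87, 6.17 and 7.85 CPM, with -2.55 ± 0.13 (SE; edgeR quasi-likelihood, BH-adjusted p = 3.5e-07). Its relative Ezh1 rose in all 5, in fibroblasts with 1.12 ± 0.11 (SE; edgeR quasi-likelihood, BH-adjusted p = 3.2e-05). Cbx7, a reader of the Polycomb mark, rose in all 5 as well, in fibroblasts with 4.22 ± 0.22 (SE; edgeR quasi-likelihood, BH-adjusted p = 4.3e-07). Kmt2a, a Trithorax methyltransferase that keeps Hox genes on, rose in all 5, in fibroblasts with 0.69 ± 0.17 (SE; edgeR quasi-likelihood, BH-adjusted p = 0.0073). In the same list Men1, Kmt2d and Kdm6b fell in fibroblasts, with log2 changes of -0.60, -0.71 and -1.27, whereas Kdm6a rose there, with 0.52.

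Of 12 other transcripts of the Hox clusters, 11 were in the tables. Hoxd3os1 was at 48.1, 37.5 and 35.9 CPM in endothelial cells at P1, with a difference from fibroblasts of 5.47 ± 0.21 (SE; edgeR quasi-likelihood, BH-adjusted p = 5.2e-19). Hoxb3os was at 32.001, 30.3 and 34.2 in Schwann cells, with 2.96 ± 0.11 (SE; edgeR quasi-likelihood, BH-adjusted p = 8.9e-20). Hotair, from HoxC, had a change in fibroblasts of 0.72 ± 0.20 (SE; edgeR quasi-likelihood, BH-adjusted p = 0.013). Reads of the antisense genes cannot be told from those of their partners where counting ignored strand.

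Per cell, Hox RNA is sparse. With every cell thinned to 1500 UMIs, a Hox UMI was found at P1 in 55.98%, 53.7% and 52.2% of endothelial cells. The mural libraries gave 46.02%, 47.9% and 47.4%, the fibroblast libraries 37.4%, 37.96% and 37.2%, the Schwann libraries 21.8%, 24.7% and 23.9% and the immune libraries 3.16%, 2.67% and 5.505%. At P60 the endothelial libraries gave 64%, 67.8% and 63.2%, the mural 50.5%, 53.97% and 46.8%, the fibroblast 47.04%, 48.7% and 48.9%, the Schwann 25.8%, 21.1% and 20.9% and the immune 8.55%, 4.204% and 5.92%. Immune cells, thinned to the same depth, held the fewest, and the part of carried fibroblast RNA in their share was not tested. Without the cells of 10 or more Dcn UMIs their mean share at P60 was 3.01% in place of 6.22%, and their summed level 30.2 CPM in place of 52.7. The order of classes followed that of the summed levels at P1. Cells under 1500 UMIs were left out at P60 only, 67 fibroblasts, 16 Schwann, 11 endothelial, 6 mural and 10 immune cells. Without thinning the mean shares at P1 were 92.4%, 87.7%, 86.6%, 59.6% and 13.3%.

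**Figure D5:**
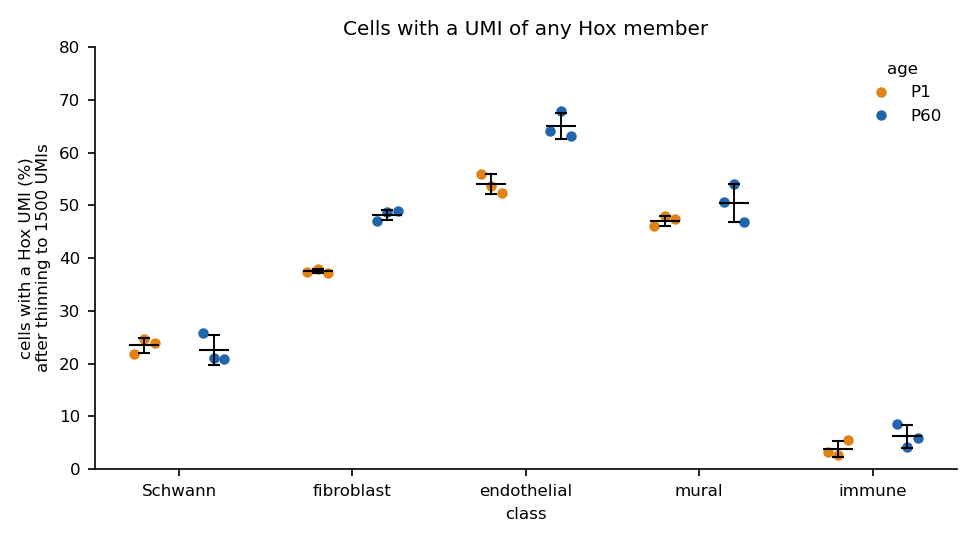
Share of cells with at least 1 UMI of any Hox member after thinning to 1500 UMIs per cell (vertical axis in percent, from 0), by class and age, with a point per library. Endothelial libraries lie between 52.2% and 67.8%, and immune libraries at or below 8.55%.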

How the data were processed

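For each of the 6 libraries the authors deposited raw UMI counts per gene and barcode, made with Cell Ranger 2.0.2 on GRCm38.p5 by the submitters' processing notes. The study's methods name a human build, although the gene identifiers are those of mouse. The annotation release and the strand setting are not given in the sources used here. Replicates were not pooled. Cells with 500 to 5000 genes were kept, which left 11735 P1 cells from 11827 barcodes and 12602 P60 cells from 12683, more than the study states. They were clustered for each age with Seurat 5.3.0 (R 4.3.3; total 10000, 10 principal components, 30 neighbours, resolution 0.5 at P1 and 0.4 at P60), with the Hox genes left out of the variable genes. Clusters were named by at least 3 markers that were 2-fold or more above the other cells, with thresholds set after seeing the data. A P1 cluster of 704 cells (median 19.7% mitochondrial counts) and 269 mixed P60 cells stayed outside the classes. No doublets were removed beyond the 5000-gene limit; Scrublet scores (scanpy 1.11.5) gave an alternative. UMI counts were summed per library and class and tested with edgeR 4.0.16 (TMM, quasi-likelihood, Benjamini-Hochberg over all genes tested, threshold 0.05), which was tested on simulated data. Age was tested without a block, and classes, layers and the interaction of class and age with the library as a block. DESeq2 1.42.0 was an alternative. SE is the absolute log2 change divided by the square root of F. Counting intervals are exact at 95% and, like the limit of 3 UMIs, cover counting error only. UMI counts of this 3′ assay carry no length correction, so levels of different genes depend on how well their ends were captured. Members given library by library are the 3 highest of each class and age, up to 6 called between the ages without overlap and up to 4 called per contrast with the largest change, and for the related lists genes chosen after their values were seen. Some genes are not reported here. The members, the lists and the tests were chosen with earlier results of these data known.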

Additional observations from a re-analysis of the deposited data

Results flagged for a closer look

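In 30 cases the change of a member between the ages differed between a class and fibroblasts by the test of the difference itself (edgeR quasi-likelihood interaction of class and age, BH-adjusted p under 0.05, 25 members tested per class). Each value is the log2 change of the class minus that of fibroblasts, whose mix of layers differed between the ages. In Schwann cells they were Hoxa9 -1.29, Hoxa10 1.68, Hoxb2 1.49, Hoxb3 2.32, Hoxb4 1.27, Hoxb9 -4.05, Hoxc4 -1.71, Hoxc5 -1.56, Hoxc9 -1.14 and Hoxc10 1.82. Hoxb9 rested on 1 UMI in P60 Schwann cells, so its fitted value is no bound, and fibroblast markers stood higher in P60 than in P1 Schwann cells. Without the cells of 10 or more Dcn UMIs the value of Hoxc10 was -0.10 and the call of Hoxa10 was lost, and 1 of these 10 calls, that of Hoxc4, held in every alternative that tested it. In endothelial cells they were Hoxa3 -1.13, Hoxa10 -0.79, Hoxb2 1.63, Hoxb3 1.59, Hoxb4 0.72, Hoxb5 1.49, Hoxb6 1.88, Hoxb7 2.08, Hoxb8 1.56, Hoxb9 1.60 and Hoxd10 4.002. Hoxd10 rested on 1 UMI in P60 fibroblasts, so that value is no bound either. In mural cells they were Hoxa9 -0.84, Hoxa10 -1.17, Hoxb2 1.24, Hoxc4 -1.57, Hoxc5 -1.61, Hoxc8 -0.69 and Hoxc9 -0.87. In immune cells they were Hoxc10 1.10 and Hoxd9 2.70, of which Hoxd9 rested on 3 UMIs at P1.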

How the results depend on the processing

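Results were recomputed under another scaling, no filter, DESeq2, other clusterings and cell sets, and with each library left out. Of the members called, those called in every alternative whose filter left them to test were, for age, 7 of 12 for fibroblasts, 6 of 9 for endothelial cells, 4 of 8 for Schwann cells and 1 of 3 for mural cells. Against fibroblasts at P1 they were 19 of 19 in Schwann, 22 of 25 in endothelial, 6 of 12 in mural and 14 of 17 in immune cells, and at P60 13 of 16, 22 of 24, 6 of 9 and 11 of 16. For the interaction they were 1 of 10 in Schwann, 4 of 11 in endothelial, 5 of 7 in mural and 0 of 2 in immune cells, and for the layers 4 of 8 perineurial and 3 of 7 epineurial. Depth limits the P60 Schwann class most, where 3 UMIs amount to 2.42 CPM. The cause of the changes below was not tested unless stated.

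With each library left out in turn, calls between the ages ranged from 2 to 8 for Schwann cells, from 0 to 2 for immune cells, from 1 to 4 for mural cells, from 6 to 9 for endothelial cells and from 8 to 14 for fibroblasts. The 2 Schwann calls came without any P1 library, where the filter on low counts left 2 members to test, and on the genes of the full fit the range was 6 to 8. On those genes the immune count was 0 throughout, and with no filter it was 2. Against fibroblasts at P1 mural calls ranged from 7 to 8. Interaction calls ranged from 3 to 9 in Schwann, 6 to 10 in endothelial and 1 to 2 in immune cells, and epineurial calls from 3 to 5. Immune interaction calls were 1 with library size alone, with no filter, without the highest Scrublet scores and without cells of 10 or more Dcn UMIs. Hoxb9 in immune cells against fibroblasts at P60 had a log2 difference of -0.12 without P60 replicate 2 and 3.19 without P60 replicate 1, and the interaction of Hoxc10 in Schwann cells was -0.10 without the cells of 10 or more Dcn UMIs.

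Samples of the same replicate number did not pair. These are the numbers of the labels, whereas the study's own list of cells gives P60 replicate 3 a different number. Correlations of their deviations from the age means lay between -0.078 and 0.157 over the classes, and were above 0.1 for all pairs in no class (2 of 3 in fibroblasts). With the replicate number as a block, age calls numbered 13 for fibroblasts, 9 for endothelial cells, 7 for Schwann cells, 4 for mural cells and 0 for immune cells. Between the layers, leaving the library block out gave 4 epineurial calls. Between the classes without the block, 22 endothelial and 14 immune calls remained at P60, and Hoxa3 and Hoxa9 in endothelial and Hoxa3 and Hoxd9 in immune cells were the calls lost. Library size alone moved the median log2 difference of all genes by -0.25 at P1 and -0.29 at P60 for immune cells against fibroblasts.

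Leaving out the cells of 10 or more Dcn UMIs gave 5 Schwann age calls. It gave a share of cells with a Hox UMI of 17.7% in P60 Schwann, 49.3% in P1 endothelial, 48.5% in P1 mural and 3.01% in P60 immune cells. The summed level was 135 CPM in P60 Schwann, 531 in P1 and 729 in P60 endothelial, and 18.4 in P1 and 30.2 in P60 immune cells, and HoxC made up 28.5% in P60 Schwann and 22.3% in P60 immune cells. Without the highest Scrublet scores the shares were 18.4% in P60 Schwann, 35.5% in P1 fibroblasts, 48.6% in P1 mural and 3.96% in P60 immune cells, the sums 538.5 and 732 in P1 and P60 endothelial and 16.4 and 28.4 in P1 and P60 immune cells, and HoxC 30.9% in P60 immune cells. In P1 fibroblasts the share was 36.8% with the Hox genes kept in the clustering, 36.1% with another seed and 36.9% with at most 10% mitochondrial counts; in P1 mural cells it was 48.2% with the Hox genes kept and 48.4% with at most 10% mitochondrial counts. Without thinning the shares at P1 and P60 were 59.6% and 34.7% for Schwann cells, 86.6% and 83.7% for fibroblasts, 92.4% and 92.1% for endothelial cells, 87.7% and 76.5% for mural cells, and 13.3% and 12.7% for immune cells. In P1 endothelial cells without those of 10 or more Dcn UMIs the unthinned share was 92.3%. Each cell set was thinned in a random draw, and the part of that draw in the shifts of the thinned shares was not tested.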

Other observations

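The 704 P1 cells that took no class name carried Hox RNA. Hoxc10 stood at 40.8, 34.9 and 35.5 CPM in replicates 1 to 3, Hoxc6 at 37.6, 39.7 and 24.7 and Hoxc8 at 31.04, 33.7 and 33.999. Their Hox genes summed to 263, 278 and 244 CPM.

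The 269 P60 cells with endothelial and mural markers together also carried it. Hoxa7 stood at 105, 111 and 80.9 CPM, Hoxb7 at 68.3, 55.2 and 42.3 and Hoxb4 at 39.6, 38.3 and 44.1. Their Hox genes summed to 657, 655 and 599.5 CPM.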
